A study of Homo sapiens with 12 samples.

Results

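The 9 genes described here form the switch that lets a cell enter mitosis, and they were taken from the 26485 genes of the count table as the rows whose names equal WEE1, PKMYT1, CDC25A, CDC25B, CDC25C, CDK1, CDK2, CCNB1 and CCNA2. RNA was sequenced from COV362 and PEO1, which are established human lines grown from serous ovarian cancers of high grade. Each line received DMSO as vehicle or 20 nM prexasertib, a drug that blocks the kinases CHK1 and CHK2 of the DNA damage checkpoint. The 4 groups were COV362 with DMSO, COV362 with prexasertib, PEO1 with DMSO and PEO1 with prexasertib, with 3 libraries each, lettered A, B and C. All groups grew in DMEM with serum, insulin and antibiotics, both lines are labelled parental, and the labels do not give the time on the drug. Each line stands for 1 tumour-derived culture, so a difference between the lines is a difference between these cultures. Nothing in the labels says that the libraries of a group came from separate cultures, so p-values measure only the spread between these samples, which may be technical.

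CDK1 and CDK2 are kinases that work only when bound to a cyclin, chiefly cyclin B1 (CCNB1) or cyclin A2 (CCNA2). WEE1 and PKMYT1 hold these pairs inactive by adding inhibitory phosphates, and the CDC25 phosphatases A, B and C take the phosphates off. CHK1 restrains the CDC25 proteins and favours WEE1 after DNA damage or replication stress, so the drug is known to act on the same proteins that these genes encode. RNA-seq measures transcripts and not phosphates, protein amounts or kinase activity. In RNA from a whole culture, fewer cells in G2 and less RNA per cell cannot be told apart.

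RefSeq's promoter table (build GRCh38.p14) matched 6 of the 9 genes. The sequences just upstream of CDC25A and CCNA2 are shown because these genes moved in opposite directions in treated PEO1 cells. Capitals mark matches, on either strand, to a CCAAT box (CCAAT) or to an E2F site (TTTGGCGC, TTTCCCGC, TTTGCCGC or TTTCGCGC), and letters run 5′ to 3′ along the gene's strand.
CDC25A, chr3:48188418-48188567, minus strand: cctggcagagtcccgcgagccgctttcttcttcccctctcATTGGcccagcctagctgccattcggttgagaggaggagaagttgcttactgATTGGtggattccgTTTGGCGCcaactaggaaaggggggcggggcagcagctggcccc
CCNA2, chr4:121823934-121824033, minus strand: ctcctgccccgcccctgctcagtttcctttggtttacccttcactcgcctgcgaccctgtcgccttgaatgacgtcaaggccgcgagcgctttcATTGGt

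CDC25A thus held 2 CCAAT boxes, at -110 to -106 and -58 to -54 from the start of the transcript, and 1 E2F site at -44 to -37. CCNA2 held 1 CCAAT box at -56 to -52, and CCNB1 held 2, at -87 to -83 and -55 to -51. CDC25B and CDC25C have 4 starts each in the table. In either gene 2 windows held a CCAAT box, and a CHR (cell-cycle homology region, TTTGAA or TTCGAA) was found in 1 window of CDC25B and 2 of CDC25C. CDK1 has 2 starts, and both windows held matches to a CCAAT box, to an E2F site and to a CHR. Among all 35116 promoter windows, which run from 250 bases before to 50 after a start, 34.6% held a CCAAT box, 3.31% an E2F site and 16.4% a CHR. None of these motifs contains another, and a match says only that the letters are there.

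Libraries held 9390790 to 18262805 counts, and 14498 genes had enough counts to be tested. Below, CPM is the count relative to library size, scaled with TMM factors, and a gene was called changed at a Benjamini-Hochberg adjusted p under 0.05 over all tested genes in edgeR's quasi-likelihood test. All 9 genes passed the count minimum, with 63 (PKMYT1, COV362 DMSO A) to 7397 (CCNB1, PEO1 DMSO B) counts in a library. All 8 epithelial and Müllerian carcinoma markers were detected in every group. Of 10 markers of stromal, endothelial and blood cells, LUM had 0 counts in all libraries, PTPRC 2 in total, CD3E and DCN 4 each, while CD68 and CDH5 reached 59.6 and 83.6 CPM. In PEO1, GC-rich genes read lower in every treated library than in every DMSO library: Spearman's rho of a gene's log2 level, less its mean over 12 libraries, with GC content was -0.06 to 0.15 in DMSO and -0.40 to -0.25 with the drug. This leaning moved with the treatment. Values with offsets for length and GC content are given for switch genes whose call they changed, and for the named pathway and phase genes that lost a call with them.

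In PEO1 the drug changed 4 of the 9 genes. CDC25A rose, while PKMYT1, CCNB1 and CCNA2 fell. The background was large, since 29.3% of all tested genes were called in PEO1, 14.7% higher and 14.6% lower. The median log2 fold change was -0.15 over the 9 genes and 0.01 over all genes. In 6 of the 9 all treated libraries lay on one side of the DMSO libraries (1 above, 5 below), against 50.1% of all tested genes, 25.0% in either direction.

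In COV362 none of the 9 genes was called by edgeR, where 0.828% of all tested genes were, 0.607% higher and 0.221% lower. Without adjustment, at p under 0.05, 1 was higher (CDC25C) and 2 were lower (CDK1, CCNA2), and 12.6% of all genes passed that threshold. DESeq2 and limma-voom called 0 as well. COV362 libraries A and B varied together with their same-lettered partners (r = 0.41 and 0.423). Libraries C did not stand out in this way (r = 0.133, against up to 0.138 with another letter). With the replicate letter as a block CDK1 and CCNA2 were called lower, at a background of 13.6% called, 7.90% lower. Of the 9 genes, 5 had all treated libraries on one side of the DMSO libraries, 1 above and 4 below, and 14.5% of all genes did, 6.82% above and 7.63% below. The plot of log2 fold changes in both lines sets these responses side by side.

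**Figure D1:**
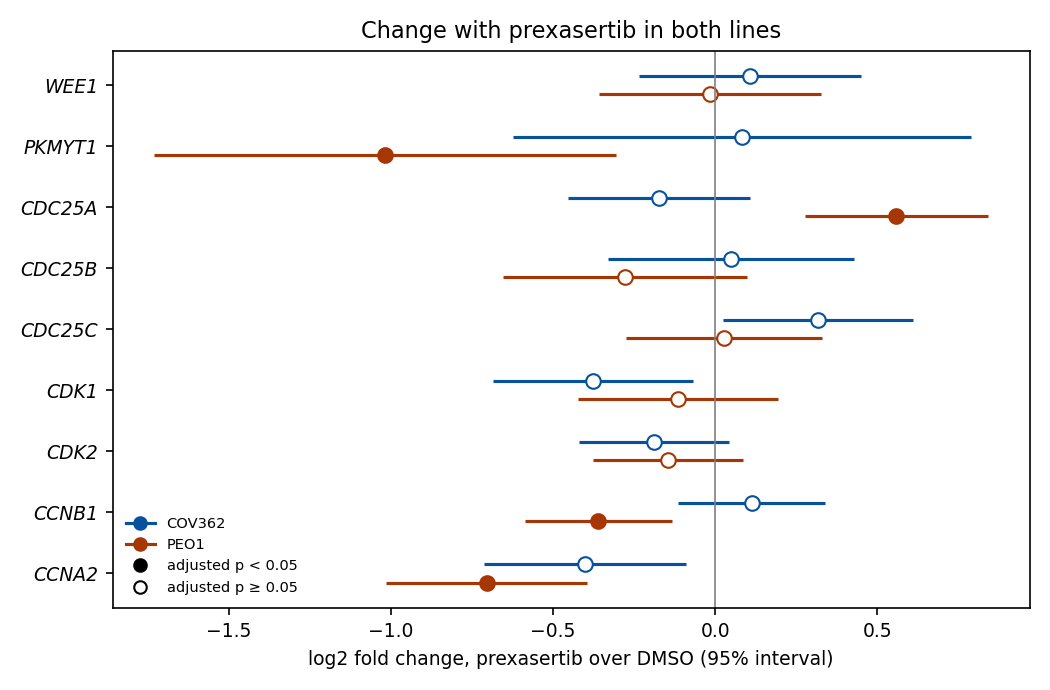
Log2 fold change of the 9 genes with prexasertib over DMSO, with 95% intervals from the edgeR fit, in COV362 (blue) and PEO1 (orange), 3 libraries per group; filled points have an adjusted p under 0.05. The 4 filled points are all in PEO1, with CDC25A to the right of 0 and PKMYT1, CCNB1 and CCNA2 to the left.

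WEE1, the nuclear kinase that phosphorylates the inhibitory tyrosine of CDK1 and CDK2, lies on chromosome 11 (9573681 to 9589766, plus strand, hg38). In COV362 it read 54.3, 39.9 and 41.2 CPM in DMSO libraries A, B and C and 47.2, 53.7 and 44.6 CPM with the drug. In PEO1 the values were 39.9, 30.6 and 30.7 CPM in DMSO and 36.1, 31.9 and 32.2 CPM with the drug. Treated and untreated libraries overlapped in both lines, and library A was the highest in both DMSO groups. The log2 fold change was 0.11 ± 0.16 (SE) in COV362 (adjusted p = 0.863, edgeR) and -0.02 ± 0.16 in PEO1 (adjusted p = 0.955, edgeR). The 95% intervals, -0.24 to 0.45 and -0.36 to 0.33, still allow changes of modest size in either direction. With offsets for length and GC content the PEO1 value was -0.44 ± 0.27 (adjusted p = 0.227, edgeR), and WEE1 was called lower in PEO1 where the replicate block was added to them (-0.42 ± 0.11, adjusted p = 0.00239, edgeR).

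PKMYT1, the membrane-bound sister kinase that acts on CDK1, had the lowest group means of the 9 genes (chromosome 16, 2972791 to 2980539, minus strand). PEO1 libraries read 10.8, 9.88 and 16.1 CPM in DMSO and 4.58, 5.49 and 8.09 CPM with prexasertib. Every treated PEO1 library was below every DMSO library, and PKMYT1 fell by 1.02 ± 0.33 on the log2 scale (adjusted p = 0.0325, edgeR). COV362 libraries read 7.62, 9.59 and 11.9 CPM in DMSO and 14.4, 5.68 and 11.1 CPM with the drug, a spread that covered both ends, and the change was 0.08 ± 0.33 (adjusted p = 0.964, edgeR).

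At 66.2%, the GC content of PKMYT1 was the highest of the 9. With offsets for length and GC content its PEO1 change was -0.42 ± 0.22 (adjusted p = 0.167, edgeR) and no longer called. The call was also lost without PEO1 DMSO library C, prexasertib library A or prexasertib library B (log2 -1.33 to -0.83 over all leave-one-out fits, adjusted p up to 0.109). PKMYT1 shares 390 exon bases, 17.5% of its exon length, with PAQR4 on the opposite strand, and the library kit keeps no strand. PAQR4 fell in PEO1 as well, by 1.03 ± 0.21 (adjusted p = 0.00241, edgeR), and its part in the PKMYT1 result was not tested.

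CDC25A, the phosphatase that activates CDK2 at the start of S phase and also CDK1, was the single member to rise (chromosome 3, 48157178 to 48188311, minus strand). PEO1 libraries read 49.3, 40.0 and 37.1 CPM in DMSO and 63.2, 65.0 and 57.9 CPM with the drug. All treated libraries lay above all DMSO libraries. The rise was 0.56 ± 0.13 on the log2 scale, or 1.47-fold (adjusted p = 0.00628, edgeR). In COV362, CDC25A read 74.2, 74.8 and 74.2 CPM in DMSO and 59.5, 70.4 and 67.9 CPM with the drug. There all 3 treated libraries were below the DMSO libraries, and the change of -0.17 ± 0.13 was not called (adjusted p = 0.664, edgeR).

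In the main test CDC25A was also the one gene of the 9 whose response was called different between the lines. It differed by 0.73 ± 0.19 on the log2 scale (PEO1 change minus COV362 change, adjusted p = 0.0361, edgeR). Of all genes, 6.10% were called for this difference, 3.14% higher and 2.97% lower. The difference was called in 3 of 12 fits that each left out 1 library, with values of 0.59 to 0.80 and adjusted p-values up to 0.127. The fits that kept the call were those without COV362 DMSO A, COV362 prexasertib B or PEO1 DMSO A. It was also lost with upper-quartile factors (adjusted p = 0.0503), with no count filter (0.0853) and with length offsets (0.0719) in edgeR. With upper-quartile factors CCNB1 was the 1 gene of the 9 called for this difference. Without PEO1 DMSO library B or C, the rise in PEO1 itself was not called (0.42 to 0.63 over all 12 fits, adjusted p up to 0.0615). With length and GC offsets the rise was 0.53 ± 0.14 (adjusted p = 0.0095, edgeR).

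CDC25B, the phosphatase that starts CDK1 activation at the centrosome in G2, read 326, 261 and 268 CPM in PEO1 DMSO and 256, 207 and 241 CPM with the drug (chromosome 20, 3786772 to 3806121, plus strand). Every treated PEO1 library was lower, yet the change of -0.28 ± 0.18 did not pass the test (adjusted p = 0.254, edgeR). In COV362 it read 146, 105 and 130 CPM in DMSO and 167, 107 and 119 CPM with the drug, with overlap and a change of 0.05 ± 0.18 (adjusted p = 0.96, edgeR). CDC25B showed no change past the test in either line, and with length and GC offsets the PEO1 value was -0.04 ± 0.19 (adjusted p = 0.896, edgeR).

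CDC25C, the phosphatase that CDK1 itself activates in a feedback loop at mitosis, stayed near its DMSO level in PEO1 (chromosome 5, 138285265 to 138338355, minus strand). It read 17.0, 16.0 and 15.1 CPM in DMSO and 16.5, 16.2 and 16.3 CPM with the drug, a log2 fold change of 0.03 ± 0.14 (adjusted p = 0.911, edgeR). In COV362 it read 33.1, 40.6 and 35.0 CPM in DMSO and 50.5, 44.3 and 40.9 CPM with the drug. All treated COV362 libraries were higher, with treated C just above DMSO B, and the change of 0.32 ± 0.14 was not called (unadjusted p = 0.0367, adjusted p = 0.347, edgeR). CDC25C shares 293 exon bases, 11.4% of its exon length, with FAM53C on the other strand. FAM53C read higher in COV362 (0.49 ± 0.13, adjusted p = 0.107, edgeR) and rose in PEO1 (1.39 ± 0.13, adjusted p = 1.23e-05, edgeR), and its part in the CDC25C counts was not tested.

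**Figure D2:**
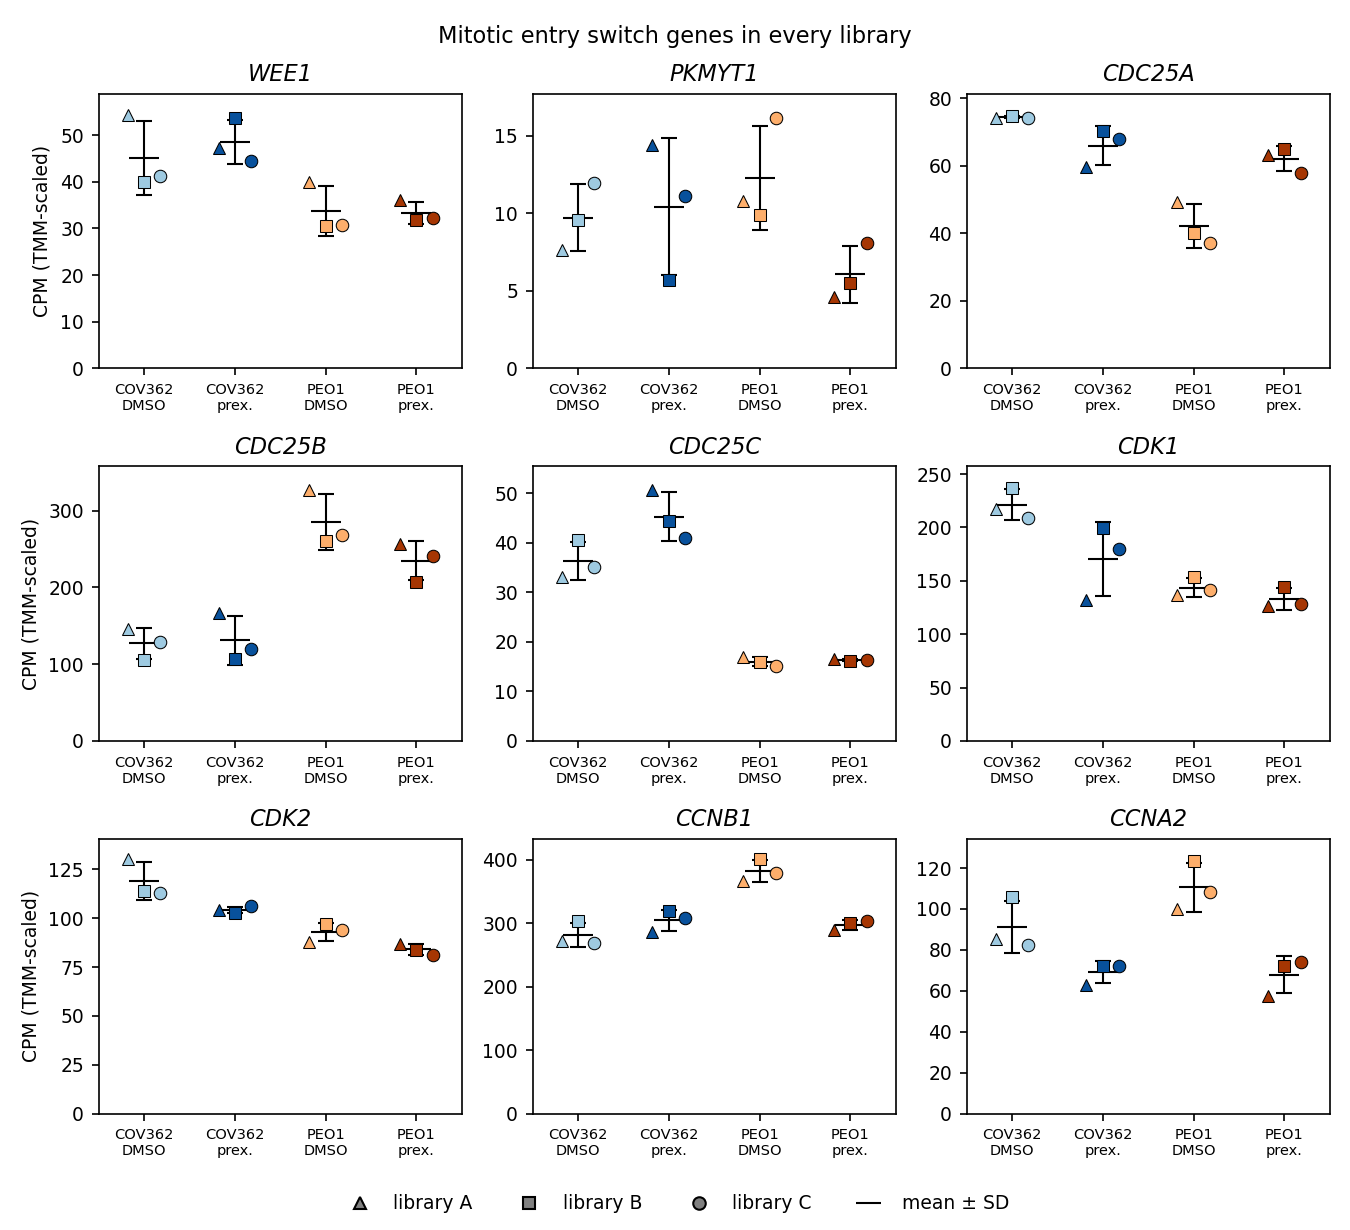
Level of each of the 9 genes in every library, in TMM-scaled CPM, by line and treatment; triangles, squares and circles are libraries A, B and C, and bars give the mean ± SD over 3 libraries. CDC25A sits at 37.1 to 49.3 CPM in PEO1 DMSO and at 57.9 to 65.0 CPM with prexasertib, while CCNA2 sits at 100.0 to 123 and 57.5 to 74.1 CPM.

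CDK1, the kinase that drives mitosis (chromosome 10, 60778331 to 60794852, plus strand), read 218, 237 and 209 CPM in COV362 DMSO and 132, 200 and 179 CPM with prexasertib. All treated COV362 libraries were lower than all DMSO libraries, and treated library A was the lowest. The change was -0.38 ± 0.14 (unadjusted p = 0.0205, adjusted p = 0.282, edgeR), and with the replicate block CDK1 fell by 0.39 ± 0.09 (adjusted p = 0.00248, edgeR). In PEO1 it read 136, 153 and 141 CPM in DMSO and 126, 145 and 128 CPM with the drug. These libraries overlapped, and the change was -0.11 ± 0.14 (adjusted p = 0.586, edgeR). CDK1 had the lowest GC content of the 9, 37.0%, and with length and GC offsets it fell in PEO1 by 0.52 ± 0.12 (adjusted p = 0.00593, edgeR).

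CDK2, which pairs with cyclins E and A in S phase (chromosome 12, 55966769 to 55972789, plus strand), read lower with the drug in all libraries of both lines, without a call in the main test. COV362 had 130, 114 and 113 CPM in DMSO and 104, 103 and 106 CPM with prexasertib (-0.19 ± 0.11, adjusted p = 0.511, edgeR). PEO1 had 87.9, 97.0 and 94.0 CPM in DMSO and 86.9, 84.0 and 81.3 CPM with prexasertib (-0.15 ± 0.11, adjusted p = 0.332, edgeR). In COV362 the replicate block alone gave no call (adjusted p = 0.163, edgeR), and CDK2 was called lower with the block and length offsets (-0.28 ± 0.09, adjusted p = 0.0253, edgeR) or the block and length and GC offsets (-0.31 ± 0.08, adjusted p = 0.00923, edgeR). In PEO1 the nearest libraries, DMSO A and treated A, were almost level.

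CCNA2 fell in PEO1 and read lower in COV362. It encodes cyclin A2, the partner of CDK2 in S phase and of CDK1 in G2 (chromosome 4, 121816444 to 121823933, minus strand). PEO1 libraries read 100.0, 123 and 108 CPM in DMSO and 57.5, 72.0 and 74.1 CPM with the drug. Every treated library was well below every DMSO library, and CCNA2 fell by 0.70 ± 0.14 on the log2 scale, to 0.614 of its DMSO level (adjusted p = 0.00271, edgeR). COV362 libraries read 85.5, 106 and 82.4 CPM in DMSO and 63.0, 72.0 and 72.3 CPM with the drug. All treated COV362 libraries were lower too, at -0.40 ± 0.14 (unadjusted p = 0.0152, adjusted p = 0.246, edgeR), and with the replicate block CCNA2 fell by 0.39 ± 0.09 (adjusted p = 0.00392, edgeR).

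The test of the difference between the lines gave -0.30 ± 0.20 for CCNA2 (adjusted p = 0.373, edgeR). CCNA2 was called lower in PEO1 in all 12 fits that left out 1 library (-0.83 to -0.65, adjusted p up to 0.0123), and with length and GC offsets it fell by 0.99 ± 0.12 (adjusted p = 5.6e-05, edgeR). Its exons share 254 bases, 9.08% of their length, with EXOSC9 on the opposite strand, and EXOSC9 rose in PEO1 by 0.75 ± 0.15 (adjusted p = 0.0024, edgeR).

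CCNB1 encodes cyclin B1, the partner of CDK1 at mitotic entry (chromosome 5, 69167010 to 69178243, plus strand). PEO1 libraries read 366, 402 and 379 CPM in DMSO and 288, 301 and 303 CPM with prexasertib. The groups were apart, and CCNB1 fell by 0.36 ± 0.11 on the log2 scale (adjusted p = 0.0198, edgeR). COV362 libraries read 272, 304 and 269 CPM in DMSO and 286, 319 and 309 CPM with the drug, with overlap and a change of 0.11 ± 0.11 (adjusted p = 0.74, edgeR). The difference between the lines, -0.47 ± 0.15, did not pass the main test (adjusted p = 0.0739, edgeR), nor any fit that left out 1 library (adjusted p from 0.0712 to 0.151, edgeR). It was called in 7 of 14 alternatives, among them DESeq2 and upper-quartile factors. Another of the 7 was the fit with length and GC offsets (-0.65 ± 0.14, adjusted p = 0.0177, edgeR). In PEO1 alone the fall was called in all 12 leave-one-out fits and was -0.60 ± 0.10 with those offsets (adjusted p = 0.000392, edgeR).

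**Figure D3:**
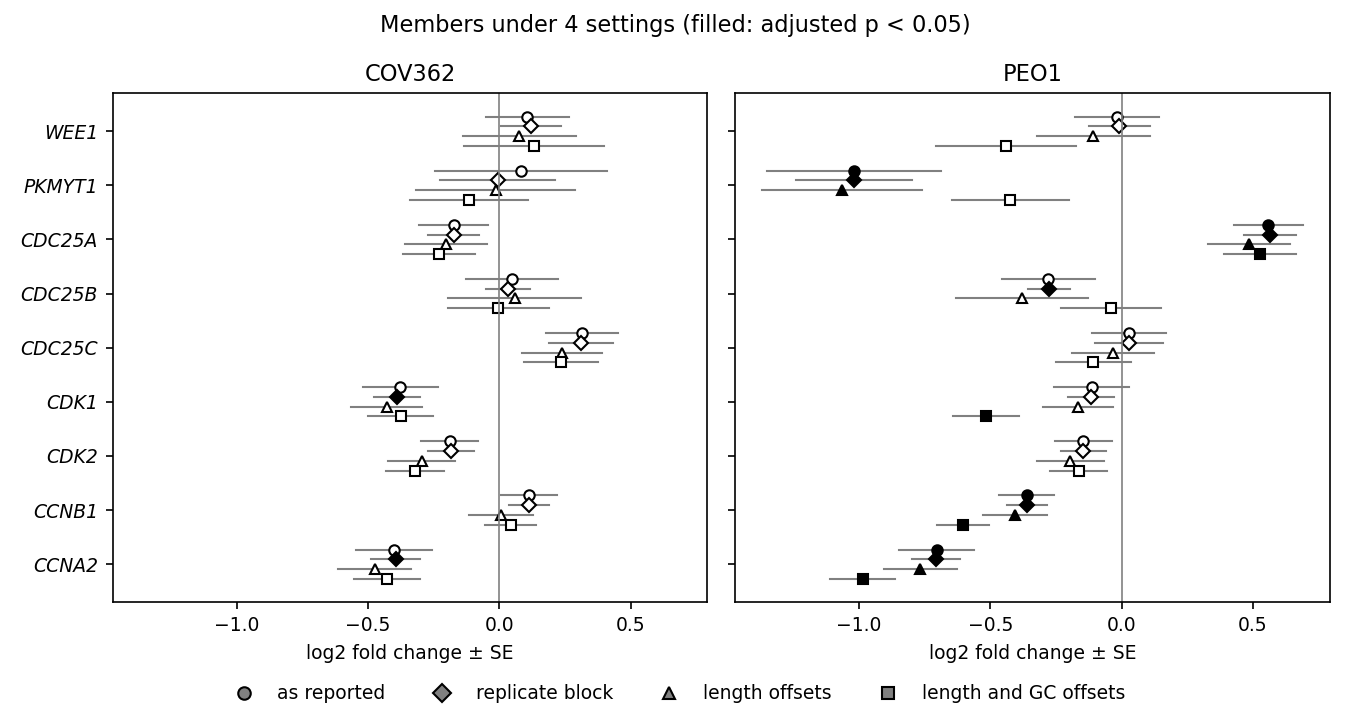
Log2 fold change ± SE of the 9 genes with prexasertib over DMSO in COV362 and PEO1 under 4 settings: as reported (circle), with the replicate letter as a block (diamond), with offsets for exon length (triangle) and with offsets for length and GC content (square); filled symbols have an adjusted p under 0.05. In PEO1, CDC25A, CCNB1 and CCNA2 are filled under all 4, PKMYT1 loses its fill at -0.42 and CDK1 gains one at -0.52 with length and GC offsets.

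Levels between genes were compared per kilobase of exon (RPKM, the scaled CPM divided by exon length). By group mean, CCNB1 was the most abundant and PKMYT1 the least abundant of the 9 in every group. In PEO1 DMSO the PKMYT1 libraries (4.42 to 7.22 RPKM) overlapped with those of CDC25C (5.88 to 6.60 RPKM). CCNB1 averaged 130 RPKM in COV362 DMSO, 141 in COV362 prexasertib, 176 in PEO1 DMSO and 137 in PEO1 prexasertib, and PKMYT1 averaged 4.35, 4.66, 5.49 and 2.71 RPKM. In COV362 DMSO the order below CCNB1 was CDK1 (66.7), CDK2 (51.7), CCNA2 (32.6), CDC25B (29.6), CDC25A (20.1), CDC25C (14.1) and WEE1 (11.2 RPKM), where CCNA2 and CDC25B, and CDC25C and WEE1, overlapped in their libraries. In PEO1 DMSO, CDC25B came next to CCNB1 at 66.4 RPKM. CDK1 (43.3), CDK2 (40.4) and CCNA2 (39.5 RPKM) followed, each overlapping with the next.

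The untreated lines differed in 7 of the 9 genes, 2 higher and 5 lower in PEO1, at a background of 57.7% of all tested genes, 29.1% higher and 28.6% lower. CDC25B and CCNB1 were higher in PEO1, with log2 differences of 1.17 ± 0.18 (adjusted p = 7.34e-05, edgeR) and 0.44 ± 0.11 (adjusted p = 0.00268, edgeR). CDC25C was lower in PEO1 by -1.18 ± 0.14 (adjusted p = 7.3e-06, edgeR) and CDC25A by -0.82 ± 0.13 (adjusted p = 0.000117, edgeR). CDK1 (-0.62 ± 0.14, adjusted p = 0.00208), CDK2 (-0.36 ± 0.11, adjusted p = 0.0115) and WEE1 (-0.41 ± 0.16, adjusted p = 0.0386) were lower as well in the edgeR test. The WEE1 libraries of the lines overlapped, and its call was lost in 4 leave-one-out fits (without COV362 DMSO A, PEO1 DMSO B, PEO1 DMSO C or PEO1 prexasertib C, adjusted p up to 0.174). CDK2 lost its call without PEO1 DMSO A (adjusted p = 0.0538, edgeR), and CCNA2, not called at 0.28 ± 0.14, gained one without COV362 DMSO B (adjusted p = 0.0428, edgeR).

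These levels gave the lines different CDC25 mixtures. Of the summed RPKM of the 3 phosphatases, CDC25B held 46.2% ± 5.22 (SD, n = 3) in COV362 DMSO and 79.0% ± 0.809 in PEO1 DMSO. CDC25C held 22.2% ± 3.50 and 7.46% ± 0.554, and CDC25A 31.5% ± 1.74 and 13.5% ± 0.637. With prexasertib the CDC25A share was 20.5%, 24.3% and 20.0% in PEO1 libraries A, B and C, above the 13.9%, 13.9% and 12.8% in DMSO. In COV362 the CDC25A share was 29.9%, 33.4% and 31.4% in DMSO and 21.5%, 31.0% and 29.5% with the drug, and the groups overlapped. The shares carry no offset for GC content, and with length and GC offsets the CDC25B change in PEO1 was smaller. The part of the GC leaning in the shares was not tested.

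**Figure D4:**
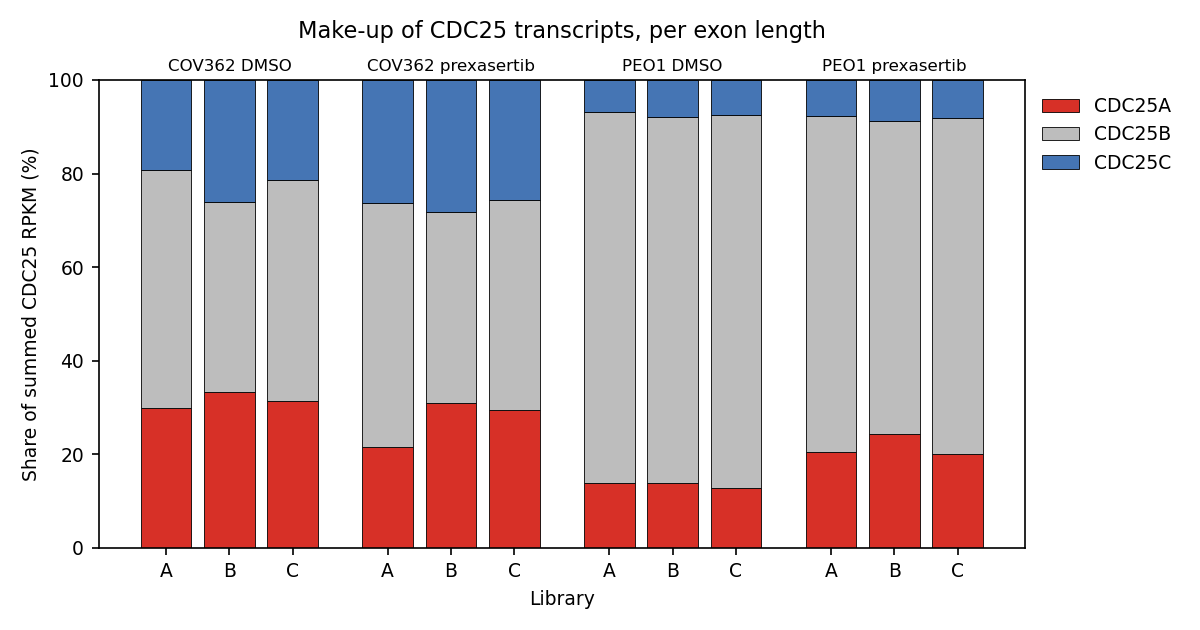
Share of the summed CDC25A, CDC25B and CDC25C level (RPKM, in %) that each gene holds in every library, by group. CDC25A (red) holds 12.8% to 13.9% in PEO1 DMSO and 20.0% to 24.3% in PEO1 prexasertib, and CDC25B (grey) holds 67.0% or more in every PEO1 library. The shares carry no offset for GC content.

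The 2 inhibitory kinases together stood well below the 3 phosphatases in RNA. The log2 ratio of summed kinase RPKM to summed CDC25 RPKM was -2.04 ± 0.05 (SD, n = 3) in COV362 DMSO and -1.98 ± 0.05 with the drug, and -2.60 ± 0.17 in PEO1 DMSO and -2.83 ± 0.09 with the drug. The treated PEO1 libraries (-2.93 to -2.76) were all below the PEO1 DMSO libraries (-2.71 to -2.40). Of the 2 kinases PKMYT1 was the one called in PEO1, and the ratio carries no offset for GC content, with which that call was lost. The log2 ratio of CCNB1 to CCNA2 was higher with prexasertib in every library of both lines, at 1.89 to 2.07 and 2.46 to 2.55 in COV362 and at 2.07 to 2.24 and 2.40 to 2.70 in PEO1. These ratios are descriptions and carry no test.

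Around the switch, 55 further genes of 6 lists were tested, and 24 (43.6%) were called in PEO1, 11 higher and 13 lower, against 29.3% of all genes. Among kinases upstream of the switch, 1 of 7 rose and 2 fell. PLK1, the mitotic kinase that marks WEE1 for destruction, fell from 175 ± 1.34 to 89.3 ± 7.60 CPM (-0.97 ± 0.12, adjusted p = 6.13e-05, edgeR). CHEK2, one of the drug's targets, fell by 0.49 ± 0.17 (adjusted p = 0.0488, edgeR), ATR rose by 0.85 ± 0.24 (adjusted p = 0.0183, edgeR), and CHEK1, which encodes CHK1, read 79.5 ± 6.50 and 70.4 ± 2.70 CPM (-0.17 ± 0.12, adjusted p = 0.285, edgeR). Of 11 cyclins, CDK-activating kinase and CKS subunits, 3 rose and 2 fell. CCNF, cyclin F, fell by 1.02 ± 0.16 (adjusted p = 0.000564, edgeR) and CCNE1, cyclin E1, by 0.55 ± 0.15 (adjusted p = 0.0152, edgeR), CDK7 rose by 0.62 ± 0.12 (adjusted p = 0.00166, edgeR), and CCNB2, cyclin B2, was not called (-0.33 ± 0.19, adjusted p = 0.211, edgeR).

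Of 8 genes for the turnover of switch proteins, mostly ubiquitin ligase subunits, 1 rose and 3 fell. CDC20, which targets cyclin B1, fell by 0.79 ± 0.13 (adjusted p = 0.000732, edgeR), FZR1 by 0.83 ± 0.24 (adjusted p = 0.0171, edgeR), and SKP1 rose by 0.70 ± 0.13 (adjusted p = 0.0012, edgeR). Of 7 genes of 14-3-3 proteins, which hold phosphorylated CDC25 proteins, SFN was the one called and fell by 1.03 ± 0.19 (adjusted p = 0.00139, edgeR). Of 8 genes for Greatwall, its substrates and the phosphatase PP2A-B55, which opposes CDK1, 3 rose and 1 fell. The regulatory subunits moved apart, with PPP2R2A up by 0.74 ± 0.14 (adjusted p = 0.00175, edgeR) and PPP2R2D down by 0.81 ± 0.14 (adjusted p = 0.00108, edgeR).

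Of 14 transcription factors of G2/M and E2F target genes, 3 rose and 4 fell. FOXM1, which drives CCNB1 and other G2/M genes, fell from 902 ± 21.4 to 566 ± 13.3 CPM (-0.67 ± 0.10, adjusted p = 0.00042, edgeR). MYBL2, its partner on CHR promoters, fell from 564 ± 27.8 to 332 ± 16.5 CPM (-0.76 ± 0.19, adjusted p = 0.00901, edgeR). LIN54 and LIN52, subunits of the complex that binds the CHR, rose by 0.84 ± 0.26 (adjusted p = 0.0251, edgeR) and 0.81 ± 0.21 (adjusted p = 0.0111, edgeR). With length and GC offsets, 15 of the 24 calls remained and 21 genes were called, 5 higher and 16 lower. PLK1, CCNF, CCNE1, CDC20, SKP1, SFN, PPP2R2D, FOXM1 and MYBL2 kept their calls, all but PPP2R2D with a smaller change. MYBL2 was near the threshold (-0.42 ± 0.15, adjusted p = 0.0492, edgeR), and SFN (-0.56 ± 0.12) and SKP1 (0.41 ± 0.12) had shrunk as well. CDK7 (0.31 ± 0.14, adjusted p = 0.12, edgeR), FZR1 (-0.33 ± 0.17, adjusted p = 0.162, edgeR) and PPP2R2A (0.36 ± 0.15, adjusted p = 0.0914, edgeR) lost their calls. ATR and LIN54 kept theirs at smaller values too, 0.41 ± 0.11 (adjusted p = 0.00959, edgeR) and 0.44 ± 0.13 (adjusted p = 0.0179, edgeR). CCNB2 gained a call at -0.53 ± 0.19 (adjusted p = 0.0461, edgeR). Those offsets moved the median of all genes in PEO1 from 0.01 to -0.10 and the calls from 2136 higher and 2113 lower to 1736 and 2716.

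In COV362 edgeR called 0 of the 55, against 0.828% of all genes. Without adjustment, 3 were higher and 6 lower at p under 0.05, a threshold that 12.6% of all genes passed. DESeq2 called 2 higher and 1 lower, against 280 and 219 of all 14498 tested genes, and limma-voom called 0. CDC20 (0.46 ± 0.13, adjusted p = 0.134, edgeR) and CDK7 (0.42 ± 0.12, adjusted p = 0.125, edgeR) read higher in all treated libraries, and CHEK2 lower (-0.53 ± 0.18, adjusted p = 0.204, edgeR). PLK1 (0.06 ± 0.11), FOXM1 (-0.18 ± 0.10), MYBL2 (-0.18 ± 0.19), CHEK1 (-0.17 ± 0.12) and CCNB2 (-0.03 ± 0.19) had adjusted p-values of 0.513 to 0.982 (edgeR). With the replicate block 4 were called higher (CDK7, CDC20, SFN and LIN37) and 6 lower (CCNE2, CHEK2, BTRC, LIN9, RBL2 and TFDP1). Of all tested genes, 13.6% were called with that block, 7.90% lower. The difference between the lines was called for 4 of the 55 (7.27%, against 6.10% of all genes), each with the more negative response in PEO1: PLK1 (-1.03 ± 0.16, adjusted p = 0.00444, edgeR), CDC20 (-1.24 ± 0.19, adjusted p = 0.00374, edgeR), PPP2R2D and SFN. With length and GC offsets the PPP2R2D call was lost (-1.06 ± 0.31, adjusted p = 0.0617, edgeR) and the other 3 remained. The direction of such calls depended on the setting. Without adjustment 12 were higher and 9 lower, against 1855 and 1795 of all tested genes. DESeq2 called 3 and 8 (all tested genes 807 and 1035), limma-voom 1 and 4 (493 and 390), and the replicate block 15 and 15 (2586 and 2320).

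**Figure D5:**
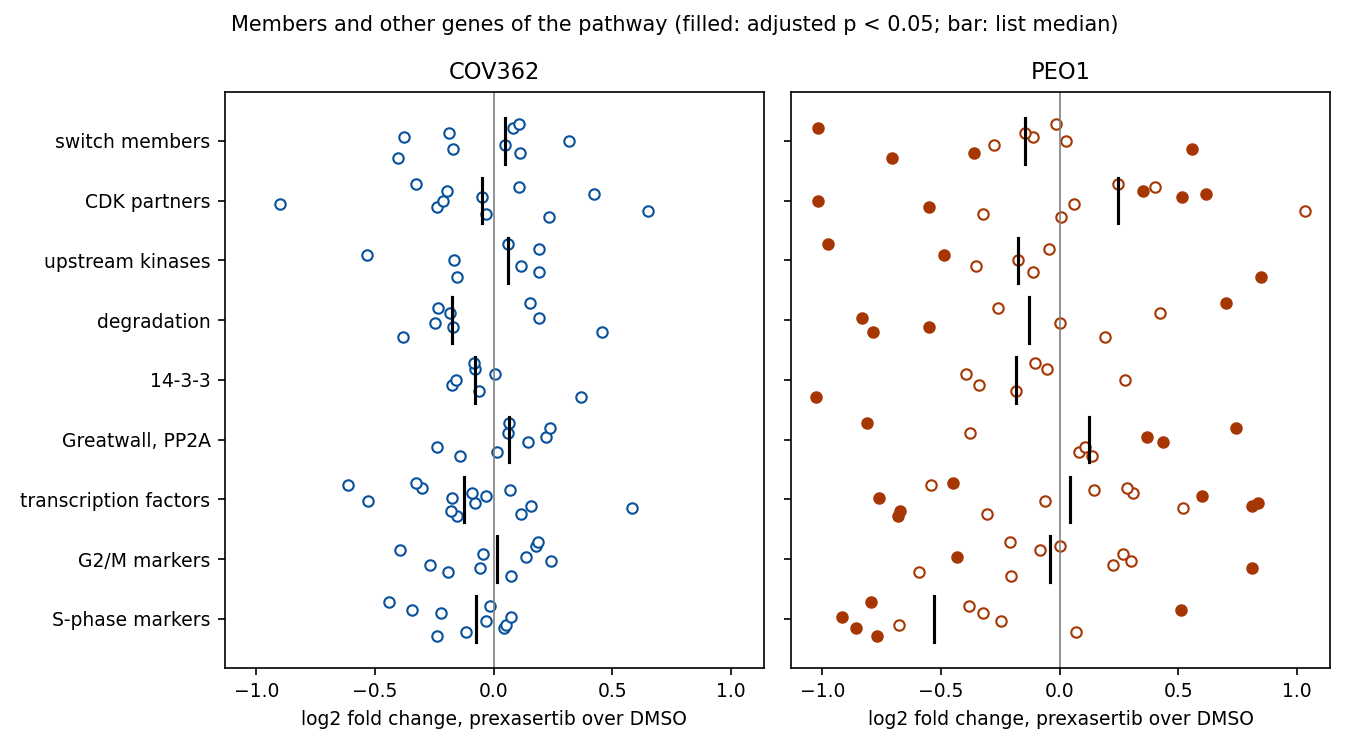
Log2 fold change with prexasertib over DMSO of the 9 switch genes, of 6 lists of further pathway genes and of 2 lists of phase markers, in COV362 and PEO1; each point is a gene, filled points have an adjusted p under 0.05 and bars mark list medians. All points are open in COV362, while in PEO1 filled points lie on both sides of 0 in most lists, with a median of -0.53 for the S-phase markers.

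Of the 20 markers of cell-cycle phase, 7 were called in PEO1 (35.0%, against 29.3% of all genes). Of 10 other genes high in G2 and mitosis, 2 were called (20.0%), where CENPE rose by 0.81 ± 0.25 (adjusted p = 0.0278, edgeR) and KIF20A fell by 0.43 ± 0.10 (adjusted p = 0.00722, edgeR). Their summed level was 1786 to 1992 CPM in PEO1 DMSO and 1737 to 2022 CPM with the drug, and it was 2882 to 3613 and 2829 to 3458 CPM in COV362. Of 10 genes high at G1/S and in S phase, RRM2 rose by 0.51 ± 0.11 (adjusted p = 0.00406, edgeR) and 4 fell, among them MCM5 by 0.92 ± 0.14 (adjusted p = 0.000465, edgeR), CDT1 by 0.86 ± 0.29 (adjusted p = 0.038, edgeR) and UHRF1 by 0.80 ± 0.16 (adjusted p = 0.00249, edgeR). Their sum was 1556 to 1679 CPM in PEO1 DMSO and 1656 to 1705 CPM with the drug, and 1292 to 1473 and 1198 to 1241 CPM in COV362. RRM2 carried much of it in PEO1, at 622 ± 31.7 and 887 ± 11.7 CPM. The other 9 genes summed to 968 to 1029 CPM in PEO1 DMSO and 776 to 804 CPM with the drug, a split made after the values were seen. The part of the phase mix in the CCNA2, CCNB1 and CDC25A results was not tested.

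In COV362 edgeR called 0 of the 20 phase markers, against 0.828% of all genes. At an unadjusted p under 0.05, 2 passed, both lower, as did 12.6% of all genes in either direction. DESeq2 called 1 lower, against 219 of all 14498 tested genes, and limma-voom called 0. RRM2 read lower in all treated COV362 libraries (-0.35 ± 0.11, adjusted p = 0.198, edgeR), and its response differed between the lines by 0.86 ± 0.16 (adjusted p = 0.00933, edgeR), a call that was lost with length and GC offsets (0.71 ± 0.21, adjusted p = 0.0739, edgeR). With the replicate block 1 was called higher (HMMR) and 4 lower (TOP2A, CENPF, RRM2 and UHRF1), at a background of 13.6% called, 7.90% lower. In PEO1, length and GC offsets left 4 of the 7 calls, and 8 were called, all lower. CENPE (0.22 ± 0.16, adjusted p = 0.308), RRM2 (0.33 ± 0.15, adjusted p = 0.107) and CDT1 (-0.33 ± 0.20, adjusted p = 0.219) lost theirs in that edgeR fit.

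The summed level of the 8 epithelial markers was 6638 to 7754 CPM in PEO1 DMSO and 3526 to 4109 CPM with the drug. Keratins carried most of it, with means of 3040 and 1447 CPM for KRT7, 1694 and 789 for KRT8, and 1661 and 1010 for KRT18. The sums and the tests of these markers carry no offset for GC content. There 4 of the 8 were called, all lower, at a background of 29.3% of all genes called, 14.6% lower. KRT8, a keratin, fell by 1.10 ± 0.13 (adjusted p = 6.13e-05, edgeR), and KRT7, KRT18 and PAX8 were called lower too. EPCAM (0.10 ± 0.18, adjusted p = 0.714), MUC16 (0.13 ± 0.34, adjusted p = 0.804), CDH1 (-0.18 ± 0.23, adjusted p = 0.606) and WFDC2 (-0.44 ± 0.28, adjusted p = 0.243) were not called by edgeR. In COV362 the sum was 2295 to 2844 CPM in DMSO and 2320 to 3530 CPM with the drug. EdgeR called 0 of the 8 there, against 0.828% of all genes. Without adjustment 2 were lower at p under 0.05, a threshold that 12.6% of all genes passed. DESeq2 called 1 lower, against 219 of all 14498 tested genes, and limma-voom called 0. The replicate block called 2 higher and 2 lower, at a background of 13.6% called. The 10 stromal, endothelial and blood markers summed to 46.7 to 51.4 CPM in PEO1 DMSO and 36.5 to 46.7 CPM with the drug, and to 112 to 130 and 101 to 116 CPM in COV362. CDH5, VE-cadherin, fell in PEO1 by 2.05 ± 0.23 (adjusted p = 4.07e-05, edgeR). It also read lower in all treated COV362 libraries, without a call (-0.71 ± 0.18, adjusted p = 0.0954, edgeR). The part of these markers in the results for the switch genes was not tested.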

How the data were processed

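The deposited values were raw counts per gene and library, 26485 genes by 12 libraries, with exon coordinates and exon length per the file headers. Per the submitters' processing notes, STAR, Subread and featureCounts 1.4.6 were used with hg38, with roles and settings not given in the sources used here. Per the labels, RNA was column-extracted and libraries were made with TruSeq RNA Library Prep Kit v2, which keeps no strand. Genes were filtered with filterByExpr (minimum count 10, minimum total 15) and scaled by TMM. Tests used edgeR 4.0.16 in R 4.3.3 (quasi-likelihood, 4 group means, 12 libraries, 8 residual degrees of freedom). They were also run on simulated counts drawn without letter effects and without length or GC leanings. That run cannot show how the tests fare where these are present. DESeq2 1.42.0, limma-voom 3.58.1, other factors and filters, a replicate block, length and GC offsets and leaving out libraries were alternatives. GC content came from the longest GENCODE v29 transcript, for 94.5% of tested genes.

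Genes other than the 9 were mostly named by rule: per list and drug comparison up to 3 called genes with the largest change, or the lowest p where none was called, and always CHEK1, FOXM1, MYBL2, PLK1 and CCNB2. Not every gene that the rule picked is given. Named outside it were genes called with the replicate block, genes that share exon bases, further cell type markers and the genes that followed a switch gene most closely. Members and lists were chosen with earlier results of these data known. Same-lettered treated and DMSO libraries correlated in their deviations from group means at 0.41, 0.423 and 0.133 in COV362. In PEO1 the values were 0.302, 0.171 and 0.0813. The main test paired the libraries of neither line, and the replicate block was an alternative. The genes that followed CDK1 most closely are not reported here.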

Additional observations from a re-analysis of the deposited data

Results flagged for a closer look

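The response of CDC25A differed between the lines by 0.73 on the log2 scale (PEO1 change minus COV362 change), and the test of that difference passed its threshold. That call was lost in 9 of 12 fits that each left out 1 library, and with upper-quartile factors, no count filter or length offsets. CDC25A was higher with prexasertib in 3 of 3 treated PEO1 libraries, as were 25.0% of all tested genes. In COV362 it was lower in 3 of 3 treated libraries, as were 7.63% of all tested genes, and that change was not called.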

How the results depend on the processing

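In PEO1, CCNA2 and CCNB1 kept their calls with other scaling factors, filters, tools, offsets and the replicate block and in 12 fits that left out 1 library each. CDC25A kept its PEO1 call with the same factors, filters, tools, offsets and block, and lost it without PEO1 DMSO library B or C. At adjusted p under 0.01, 2 of the 9 genes were called in PEO1, CCNA2 and CDC25A, and CCNB1 was not. Against a minimum of 1.5-fold 0 were called. The length and GC offsets were chosen after the data were seen.

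Genes called in COV362 numbered 120, and 499 with DESeq2, 10 with the COV362 groups alone, 266 with length and GC offsets, 35 at adjusted p under 0.01, 16 against 1.5-fold, 330 without the A libraries and 27 to 128 without 1 library. In PEO1 the 4249 calls became 2319 at 0.01, 1087 against 1.5-fold and 3011 to 5053 without 1 library. The 885 calls for the difference between the lines became 1843 with DESeq2, 157 at 0.01, 83 against 1.5-fold and 328 to 1756 without 1 library. The 8361 differences between the DMSO groups became 5258 against 1.5-fold and 7513 to 8901 without 1 library. The split for the difference, 455 higher and 430 lower, was 382 and 546 with upper-quartile factors, and 351 and 587 with no filter. In COV362 the split of 88 and 32 was 280 and 219 with DESeq2, and 134 and 132 with length and GC offsets. The median of all genes between the DMSO groups moved from -0.01 to -0.11 with upper-quartile factors, -0.12 with length offsets and -0.13 with length and GC offsets.

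Of the 9 genes, the difference between the lines was called for 1, and for 2 with DESeq2, 2 with length and GC offsets, 2 without the A libraries, 0 with no filter, length offsets, adjusted p under 0.01 or 1.5-fold, and 0 to 2 without 1 library. Without 1 library, 0 were called in COV362, 2 to 4 in PEO1 and 6 to 8 between DMSO groups, where 3 were called against 1.5-fold.

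With the replicate block, calls numbered 1977 in COV362, 7446 in PEO1 and 4906 for the difference. With length offsets and the block they numbered 1949, 7596 and 4724, and with length and GC offsets and the block 2056, 7165 and 3432. Of the 9 genes, the block called 2 in COV362 and 4 for the difference, and with either offset and the block 3 and 4. In PEO1, where libraries B and C correlated more with another letter than with their own, the block added CDC25B (-0.28, adjusted p = 0.00455, edgeR). With length and GC offsets the block called WEE1 in PEO1 and for the difference (-0.60, adjusted p = 0.00555, edgeR). COV362 libraries A and B and PEO1 library A correlated best with their own letter.

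Among the 9 genes, signs changed in results that had not passed the test. CDC25C in PEO1 was -0.011 with RLE factors, -0.010 with DESeq2, -0.035 with no filter, -0.033 with length offsets, -0.031 with these and the block, -0.11 with length and GC offsets with or without the block, and -0.068 to 0.024 without 1 library. PKMYT1 in COV362 was -0.055 with limma-voom, -0.0054 with the block, -0.014 with length offsets, -0.11 with both, -0.12 with length and GC offsets, -0.13 with these and the block, -0.35 without the A libraries, and -0.22 to 0.38 without 1 library. CDC25B in COV362 was -0.0035 with length and GC offsets, -0.0059 with these and the block, -0.046 without the A libraries, and -0.16 to 0.17 without 1 library. WEE1 in PEO1 was 0.058 without the A libraries and -0.13 to 0.066 without 1 library. For the difference, CDK2 was -0.021 with upper-quartile factors or no filter, -0.10 without the A libraries and -0.055 to 0.078 without 1 library, and CDK1 was -0.14 with length and GC offsets and -0.16 with these and the block. The causes were not tested. Depth limits PKMYT1 most, at 63 counts in its lowest library.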

Other observations

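Over all tested genes other than the 9, those whose levels followed a switch gene most closely were named by Pearson's r over 12 libraries after the mean of each line was removed, among 10671 candidates with a mean of at least 5 CPM. These values describe shared variation over libraries that also share the drug contrast, depth and GC leaning, and carry no test. CCNB1 was followed most closely by KIF20A, a mitotic kinesin (r = 0.972), then PARP9 (0.969) and ALDH18A1 (0.926). CCNA2 was followed by IL13RA1 (0.977), ALDH7A1 (0.973) and DHTKD1 (0.967), and CDC25A by DCTN5 (0.936), CWF19L2 (0.934) and ACVR2B (0.926). CDC25B had the highest value of those given here, 0.990 with CTDSP1, and PKMYT1 reached 0.980 with RHOT2. WEE1 and CDK2 were followed by DKC1 (0.939) and GPC4 (0.913), and CDC25C had the lowest leading value given here, 0.876 with LAT2.

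Among the 9 genes themselves, the same measure was 0.73 between CCNB1 and CCNA2 and -0.81 between CCNB1 and CDC25A. WEE1 stayed between -0.39 and 0.41 with every other member.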
